A study of Mus musculus with 8 samples.

Results

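The 9 genes described here encode secreted salivary proteins: the proline-rich proteins Prb1, Prh1, Prp2 and Prpmp5, the submaxillary gland androgen-regulated protein Smr3a, the apomucin Muc10 (current RefSeq symbol Prol1), and the demilune cell and parotid proteins Dcpp1, Dcpp2 and Dcpp3. They were chosen by name, from the gene name of a probe or the current symbol of its transcript, and not by a rule on their values. Earlier results of these data were known when the genes were chosen. They were measured by 12 probes, and all 9 genes were among the 16362 genes tested.

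The samples were mouse salivary tumours that AKT, a serine/threonine kinase acting upstream of mTOR, had induced, and normal salivary glands, measured on 8 Agilent 1-colour whole-genome arrays. Tumours were untreated (2 arrays) or given the mTOR inhibitor rapamycin for 3 days (1 array) or 14 days (2 arrays). Normal untreated submandibular gland had 1 array and normal untreated parotid gland had 2. The strain, age, transgene driver, rapamycin dose and gland of origin of the tumours are not given in the sources used here, nor is whether replicate arrays stand for different animals. The p-values therefore measure only the spread between these samples.

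Saliva is made by acinar cells, which secrete most of its protein, and is modified by ducts. Proline-rich proteins are abundant secretory products of parotid acini and bind dietary tannins and calcium. Muc10 is an acinar mucin of the mouse submandibular gland, and the Dcpp proteins take their name from the serous demilune cells of the sublingual gland and from the parotid gland. In bulk tissue, fewer cells of a type and less RNA per cell cannot be told apart.

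The genes lie in 3 clusters. By the mm8 positions of the array files, the proline-rich protein probes are on chromosome 6, Smr3a and Muc10 on chromosome 5, and Dcpp1, Dcpp2 and Dcpp3 on chromosome 17. The Prb1 probe is at chr6:132172536-132172853, Prpmp5 at chr6:132277444-132277503, Prh1 at chr6:132537366-132537425 and Prp2 at chr6:132566132-132566191. Smr3a is at chr5:89082901-89082960 and Muc10 at chr5:89403132-89403191. Dcpp1 is at chr17:23609049-23610089, Dcpp2 at chr17:23627003-23628043 and Dcpp3 at chr17:23645668-23646709. Promoter stretches are shown for 6 of the genes, with at least 1 from each cluster. The genes of all 3 clusters changed in the same direction in untreated tumour against parotid, and again in day 14 against untreated tumour. Near-identical copies also bear on how well probes tell genes apart. Each stretch is 140 bases long and ends 25 bases from the transcript start, 5′ to 3′ (RefSeq, GRCm38). Capitals mark TATAA on the gene's strand.
Prb1, chr6:132210497-132210636, minus strand: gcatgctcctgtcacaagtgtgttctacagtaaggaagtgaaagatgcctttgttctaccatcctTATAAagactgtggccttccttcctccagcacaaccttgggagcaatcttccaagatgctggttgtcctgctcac
Prp2, chr6:132595796-132595935, plus strand: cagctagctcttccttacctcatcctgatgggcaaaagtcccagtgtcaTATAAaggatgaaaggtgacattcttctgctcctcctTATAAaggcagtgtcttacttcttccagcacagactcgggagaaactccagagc
Smr3a, chr5:88002410-88002549, plus strand: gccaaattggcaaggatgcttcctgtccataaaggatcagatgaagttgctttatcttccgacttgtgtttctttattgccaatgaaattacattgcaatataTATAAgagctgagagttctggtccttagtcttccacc
Muc10, chr5:88317197-88317336, plus strand: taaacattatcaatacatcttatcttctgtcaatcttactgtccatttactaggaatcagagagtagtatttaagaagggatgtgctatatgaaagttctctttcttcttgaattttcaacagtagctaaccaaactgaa
Dcpp1, chr17:23880761-23880900, plus strand: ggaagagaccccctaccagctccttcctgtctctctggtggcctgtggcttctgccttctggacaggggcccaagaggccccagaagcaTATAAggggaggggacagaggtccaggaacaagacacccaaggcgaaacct
Dcpp2, chr17:23898607-23898746, plus strand: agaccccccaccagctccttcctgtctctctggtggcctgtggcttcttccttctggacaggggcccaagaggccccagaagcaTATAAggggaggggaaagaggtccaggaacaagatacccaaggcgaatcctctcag
Over the full 300-base promoters, Prb1 and Prpmp5 were 96.56% identical in aligned bases, Prh1 and Prp2 98.11%, and the Dcpp pairs 96.95% to 97.65%. Smr3a and Muc10, at 60.23%, were within the 48.93% to 63.81% of pairs from different groups. TATAA, searched on both strands, was in the promoters of 8 of the 9 genes and in 24.9% of 32851 mouse promoters. Muc10 was the gene without it. On the gene's strand and 70 to 20 bases before the start, TATAA was in 7 of the 9 genes and 5.24% of all promoters. A match is a description of the letters, not a binding site.

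Values below are log2 signals, the log2 of a spot's background-subtracted intensity minus that of the array's 75th percentile. Each gene is given by its brightest probe, and levels are compared between samples only, never between probes. A gene that was not well above background on an array has only an upper bound there. The 75th percentile ranged from 145 to 972 in signal units, between 43.2% and 58.4% of spots per array passed the scanner's well-above-background call, none was saturated, and the number of arrays limited the precision. Slide 1 held day 14 replicate 1, both untreated tumours and parotid replicate 1. The remaining 4 arrays were on slide 2. The day 14 pair had r = 0.986 across genes, and genes are not independent replicates. Both held Xist, which the inactive X chromosome expresses (−2.10 and −2.40), together with 3 Y-linked transcripts well above background. Each other array held only Xist or only the Y-linked transcripts. The 8 skeletal muscle markers averaged 5.35 and 5.49 at day 14, −4.39 at day 3, −5.44 in both untreated tumours, −3.82 in the submandibular gland and −4.83 and 2.34 in the parotid glands. Their part in the results below was not tested.

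**Figure D1:**
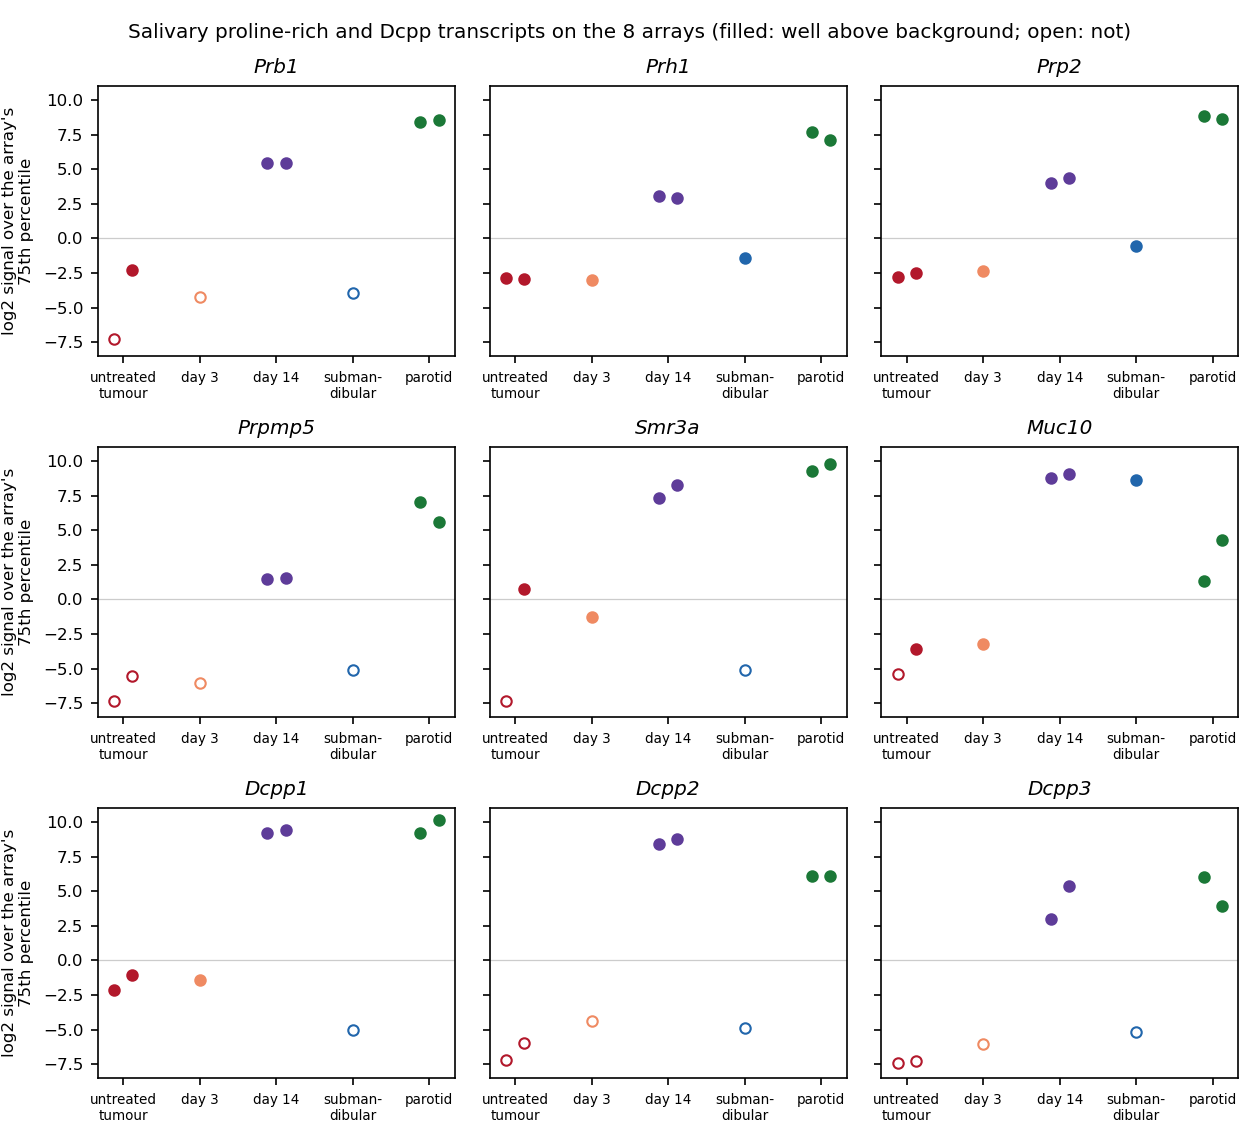
Log2 signal over the array's 75th percentile for each of the 9 genes (1 panel each) on the 8 arrays, with groups along the horizontal axis and 1 point per array. Filled points were well above background and open points were not. All 9 genes were higher on both day 14 arrays than on either untreated tumour array, and Muc10 was the gene whose submandibular level was near its day 14 levels.

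The first question was how tumours differ from normal gland. All 9 genes were lower in untreated tumour than in parotid gland (limma, adjusted p below the threshold of 0.05 over all genes), against 20.3% of all genes called lower, 18.7% called higher and 39.0% called in either direction. The median difference was −12.28 on the log2 scale, or −11.35 with arrays not well above background at their bound, against 0.02 over all genes. For each of the 9 genes, both tumour arrays were below both parotid arrays.

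Prh1, a proline-rich protein of the HaeIII subfamily, was at −2.86 and −2.91 in untreated tumour, −2.97 after 3 days, 3.08 and 2.89 after 14 days, −1.43 in the submandibular gland, and 7.71 and 7.08 in the parotid glands. It was well above background on all 8 arrays. Untreated tumour was 10.28 log2 units below parotid (−10.28 ± 0.27, SE, 2 arrays against 2, limma adjusted p = 3.8e-05), and the untreated and day 3 tumours were the lowest arrays.

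Prp2, its near-identical neighbour by promoter, was at −2.77 and −2.46 in untreated tumour, −2.38 after 3 days, 4.02 and 4.37 after 14 days, −0.57 in the submandibular gland, and 8.85 and 8.62 in the parotid glands. As with Prh1, the untreated and day 3 tumours were the lowest, followed by the submandibular gland, day 14 and parotid. The Prh1 probe also lists the Prp2 transcript, so the probes may share signal. Untreated tumour differed from parotid by −11.35 ± 0.23 (limma adjusted p = 3.8e-05).

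Prb1, a proline-rich protein of the BstNI subfamily, was at −7.22 and −2.24 in untreated tumour, −4.20 after 3 days, 5.47 and 5.46 after 14 days, −3.96 in the submandibular gland, and 8.41 and 8.53 in the parotid glands. It was not well above background on untreated tumour replicate 1, at day 3 or in the submandibular gland. Untreated tumour differed from parotid by −13.20 ± 1.42 (limma adjusted p = 0.00114). It was −10.71 without untreated tumour replicate 1, and it was also called without replicate 2, where the tumour array left was not well above background.

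Prpmp5, the proline-rich protein MP5, was at −7.34 and −5.53 in untreated tumour, −6.05 after 3 days, 1.46 and 1.58 after 14 days, −5.12 in the submandibular gland, and 7.01 and 5.59 in the parotid glands. The signal was well above background at day 14 and in parotid only. It was at least 3173-fold lower in untreated tumour than in parotid (limma adjusted p = 0.000164). A fold given as "at least" sets the bright group against, on each dim array, the lowest signal well above background or the probe's own signal where higher.

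Smr3a, whose array name is Smr1, was at −7.31 and 0.76 in untreated tumour, −1.24 after 3 days, 7.31 and 8.28 after 14 days, −5.12 in the submandibular gland, and 9.28 and 9.79 in the parotid glands. Untreated tumour replicate 1 and the submandibular gland were not well above background. Untreated tumour differed from parotid by −12.81 ± 2.30 (limma adjusted p = 0.00729). It was −8.78 without untreated tumour replicate 1, and it was also called without replicate 2, where the tumour array left was not well above background.

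Muc10 was at −5.37 and −3.58 in untreated tumour, −3.18 after 3 days, 8.73 and 9.05 after 14 days, 8.62 in the submandibular gland, and 1.32 and 4.26 in the parotid glands. Of these arrays, untreated tumour replicate 1 was not well above background. Untreated tumour differed from parotid by −7.27 ± 0.99 (limma adjusted p = 0.0027; −5.79 without parotid replicate 2 and −8.74 without replicate 1) and from the submandibular gland by −13.10 ± 1.22 (limma adjusted p = 0.0011).

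Dcpp1 was at −2.15 and −1.04 in untreated tumour, −1.41 after 3 days, 9.21 and 9.39 after 14 days, −5.02 in the submandibular gland, and 9.20 and 10.14 in the parotid glands. The submandibular gland was the array not well above background. Untreated tumour differed from parotid by −11.27 ± 0.45 (limma adjusted p = 9e-05).

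Dcpp2 was at −7.15 and −5.93 in untreated tumour, −4.38 after 3 days, 8.39 and 8.75 after 14 days, −4.91 in the submandibular gland, and 6.07 and 6.08 in the parotid glands. Dcpp3 was at −7.37 and −7.24 in untreated tumour, −6.06 after 3 days, 2.98 and 5.36 after 14 days, −5.14 in the submandibular gland, and 5.999 and 3.95 in the parotid glands. Both were well above background at day 14 and in parotid only. In untreated tumour Dcpp2 was at least 2783-fold lower and Dcpp3 at least 1300-fold lower than in parotid (limma adjusted p = 4.8e-05 and 0.00038).

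Against the submandibular gland the picture was mixed. Prh1, Prp2 and Muc10 were lower in untreated tumour and Dcpp1 was higher, so 4 of the 9 genes were called, against 29.4% of all genes (14.3% higher and 15.2% lower). Dcpp1 was at least 2.56-fold higher (limma adjusted p = 0.00648), Prh1 differed by −1.46 ± 0.33 (limma adjusted p = 0.0202) and Prp2 by −2.05 ± 0.28 (limma adjusted p = 0.00399). Prpmp5, Dcpp2 and Dcpp3 were not well above background on any of these 3 arrays. The Prh1 call was lost without either untreated tumour replicate (adjusted p = 0.0798 and 0.0859). Without untreated tumour replicate 1, Prb1 was called at least 1.64-fold higher and Smr3a at least 13.1-fold higher (limma adjusted p = 0.0261 and 0.00322). Without replicate 2, Prb1 and Dcpp2 passed as lower, but neither was well above background on the 2 arrays then compared, so no difference was measured.

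The untreated tumours differed from each other in some of the 9 genes and not in others. Of the genes well above background on both arrays, Dcpp1 was 1.12 log2 units higher on replicate 2, Prp2 was 0.30 higher and Prh1 differed by −0.05, against a median size of 0.210 over 15049 such genes. Smr3a, Prb1 and Muc10 were well above background on replicate 2 alone, where they were higher by at least 5.89, 2.89 and 1.55 log2 units. Prpmp5, Dcpp2 and Dcpp3 were well above background on neither array, so no difference between the tumours was measured for them. Of the 4 sex-linked transcripts, replicate 1 had the 3 Y-linked ones and not Xist, and replicate 2 had Xist alone, well above background. The acinar markers differed in part: all 8 were well above background on replicate 2, with a mean of 2.96. On replicate 1 Pip and Cst10 were not, and the mean of −0.88 includes their dim signals. Amy1 was at −3.83 on replicate 1 and 5.13 on replicate 2. Lpo was nearly level (−1.25 and −1.19) and Aqp5 was lower on replicate 2 (5.65 and 5.36). The part of the sex-linked transcripts or of the acinar markers in the difference was not tested.

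**Figure D2:**
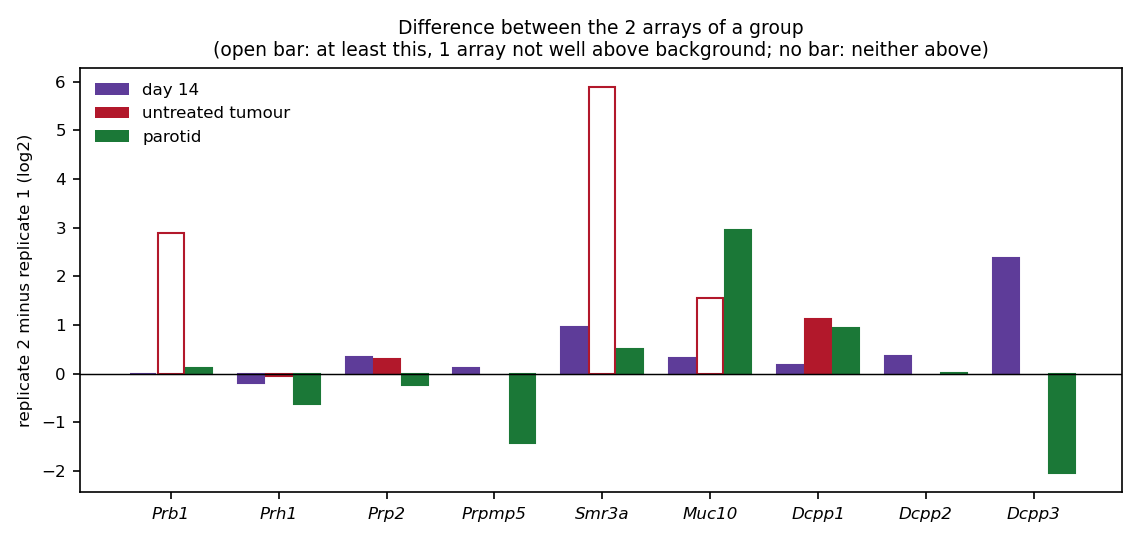
Difference between the 2 arrays of day 14, untreated tumour and parotid (replicate 2 minus replicate 1, log2, 1 bar per group) for each of the 9 genes. An open bar gives the least difference where 1 array was not well above background, and there is no bar where neither was. The open Smr3a bar of 5.89 in untreated tumour is the longest, the Muc10 bar in parotid is 2.95, and the longest day 14 bar is 2.38 for Dcpp3.

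After 3 days of rapamycin none of the 9 genes passed the test against untreated tumour, where 0.00611% of all genes, a single gene, did by limma and 1436 genes had an unadjusted p below the threshold. The differences were small beside their error for most genes, with −0.09 for Prh1 (95% interval −0.88 to 0.71) and 0.24 for Prp2 (−0.45 to 0.93). Dcpp2 had the smallest p (2.16 ± 0.50, limma adjusted p = 0.282), but was not well above background on any of the 3 arrays. For Smr3a the interval ran from −4.79 to 8.86, and the day 3 value of −1.24 lay between the untreated tumours. The day 3 array and the untreated tumours lay on different slides, so this comparison has no value within a slide.

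After 14 days all 9 genes were higher than in untreated tumour, against 24.3% of all genes called higher, 23.5% called lower and 47.7% called in either direction. The median difference was 10.90, or 9.54 with dim arrays at their bound, against 0.02 over all genes, and both day 14 arrays lay above both untreated tumours for each gene. Dcpp2 was at least 15671-fold higher (limma adjusted p = 5e-05), Dcpp3 at least 743-fold (limma adjusted p = 0.000464), and Dcpp1 differed by 10.90 ± 0.45 (limma adjusted p = 0.000129). Muc10 differed by 13.37 ± 0.99 (limma adjusted p = 0.000369).

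Each proline-rich protein rose as well. Prh1 differed by 5.87 ± 0.27 (limma adjusted p = 0.00014) and Prp2 by 6.81 ± 0.23 (limma adjusted p = 7.7e-05). Prb1 differed by 10.19 ± 1.42 (limma adjusted p = 0.00242), and Prpmp5 was at least 116-fold higher (limma adjusted p = 0.00057). Smr3a differed by 11.07 ± 2.30 (limma adjusted p = 0.010) and lost its call without either day 14 replicate (adjusted p = 0.0621 and 0.0711) and within slide 1 (adjusted p = 0.0564). Without untreated tumour replicate 1 the difference was 7.04 for Smr3a and 7.70 for Prb1, called in both cases. Both were also called without replicate 2, where the tumour array left was not well above background.

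Day 14 also exceeded day 3, in 8 of the 9 genes, against 10.9% of all genes called higher, 11.8% called lower and 22.8% called in either direction. The difference was 5.95 ± 0.33 for Prh1 and 12.07 ± 1.22 for Muc10, and Dcpp2 was at least 6153-fold higher (limma adjusted p = 0.000718, 0.00252 and 0.000358). Smr3a was the exception, at 9.03 ± 2.82 (limma adjusted p = 0.0656). Prb1 lost its call without day 14 replicate 1 or 2 (adjusted p = 0.0861 and 0.0834). Day 3 was a single array, assumed to vary like the replicated groups.

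Set against parotid, the day 14 tumours fell into 3 patterns. Prh1 (−4.41 ± 0.27), Prp2 (−4.54 ± 0.23) and Prpmp5 (−4.78 ± 0.70) were lower at day 14 (limma adjusted p = 0.00199, 0.00124 and 0.0157). Muc10 (6.10 ± 0.99) and Dcpp2 (2.49 ± 0.41) were higher (limma adjusted p = 0.0203 and 0.0206). So 5 of the 9 genes were called, against 11.3% of all genes (6.25% higher and 5.07% lower). Prb1 (−3.01, 95% interval −6.44 to 0.43), Smr3a (−1.74, −7.31 to 3.84), Dcpp1 (−0.37, −1.46 to 0.72) and Dcpp3 (−0.81, −3.04 to 1.43) did not pass, and these intervals span 0. The Prb1 and Smr3a intervals also carry the spread of the untreated tumours, which differed by at least 2.89 and 5.89. In Prb1 the day 14 arrays differed by 0.002 and the parotid arrays by 0.12. Prb1 was called lower with only the arrays compared (limma adjusted p = 0.0170) and with normexp background correction (limma adjusted p = 0.0236). Without day 14 replicate 1 or replicate 2, none of the 9 genes and none of all genes tested passed.

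Within slide 1, day 14 minus parotid was −4.63 for Prh1, −4.83 for Prp2, 7.41 for Muc10 and 2.32 for Dcpp2. Within slide 2 it was −4.19, −4.25, 4.78 and 2.67 in the same order of genes. The direction was the same on both slides for these 4 genes and for Prpmp5, Prb1 and Smr3a. Dcpp3 was at −3.02 on slide 1 and 1.40 on slide 2. Each slide held 1 array of each of these groups. The fit of slide 1 alone took its replicate spread from the untreated tumours, where Dcpp2 and Dcpp3 were not well above background. Dcpp2 lost its call there and Dcpp3 was called lower, so neither outcome is used. For Muc10 the difference over both slides was 7.57 without parotid replicate 2 and 4.62 without replicate 1.

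Against the submandibular gland, 8 of the 9 genes were higher at day 14, against 5.65% of all genes called higher, 3.28% called lower and 8.93% called in either direction. Dcpp1 was at least 4872-fold higher, Smr3a at least 1719-fold and Prb1 at least 342-fold (limma adjusted p = 0.00101, 0.0431 and 0.0287). Muc10 was the exception, with a difference of 0.27 and a 95% interval of −2.68 to 3.21 (limma adjusted p = 0.914). With 1 submandibular array, 2 of the genes passed without day 14 replicate 1 and none without replicate 2. With slide as a fixed block 6 passed.

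**Figure D3:**
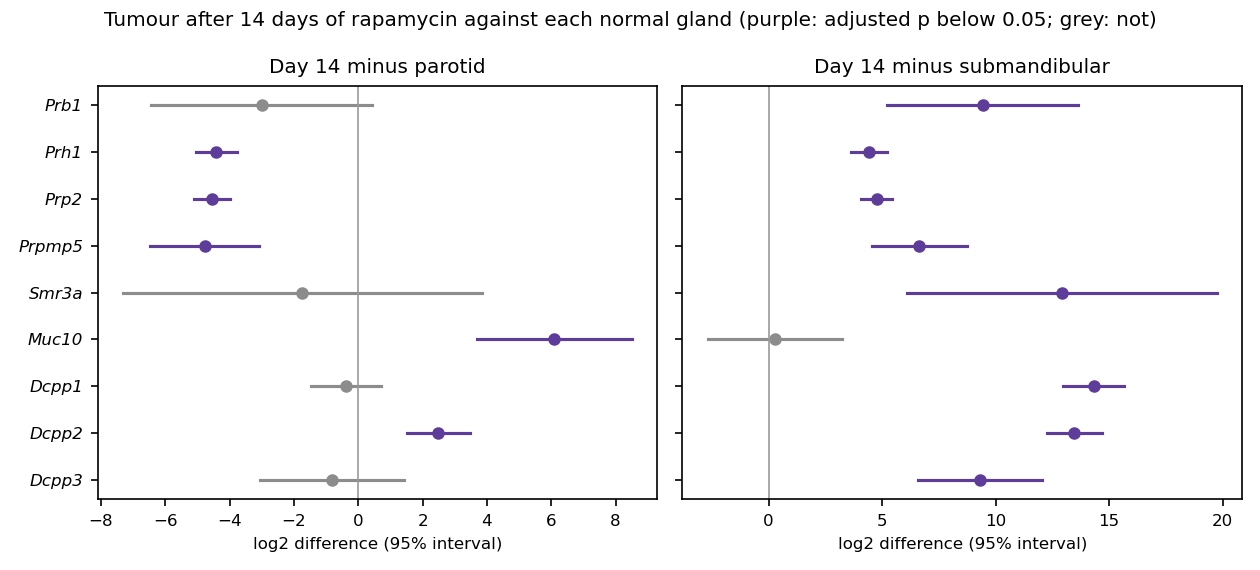
Difference in log2 signal between day 14 tumour and parotid (left) or submandibular gland (right) for each of the 9 genes, with 95% intervals from limma. Purple marks an adjusted p below the threshold. Prh1, Prp2 and Prpmp5 lie left of 0 against parotid and right of 0 against submandibular gland, while Muc10 lies right of 0 against parotid and its interval spans 0 against submandibular gland.

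The normal glands differed in the same genes. In the submandibular gland 7 of the 9 genes were lower than in parotid, against 0.984% of all genes called lower, 1.36% called higher and 2.35% called in either direction. Prh1 differed by −8.82 ± 0.33 (limma adjusted p = 0.000572), and Dcpp1 was at least 6305-fold lower (limma adjusted p = 0.000572). Smr3a, at least 5731-fold lower, and Muc10, with a difference of 5.83 ± 1.22, missed the threshold (limma adjusted p = 0.0607 and 0.0707). The Muc10 difference was 4.36 without parotid replicate 1 and 7.30 without replicate 2. Each of these fits leaves 1 parotid array and so holds no spread between parotid arrays, and its calls are not used. With slide as a fixed block 5 of the 9 genes passed. The parotid arrays differed by 2.95 in Muc10, replicate 2 being higher. Parotid replicate 2 held the Y-linked transcripts and not Xist, while parotid replicate 1 and the submandibular gland held Xist alone. The part of this in the gland differences was not tested.

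Some markers of other cell types shared the rise of these genes at day 14 and others did not, and their part was not tested. The 8 granular duct markers measured were kallikreins, growth factors and renin of the submandibular ducts. They averaged −5.48 and −3.84 in untreated tumour, −3.05 after 3 days, and 9.17 and 9.16 after 14 days. In the submandibular gland the mean was 8.75, and in the parotid glands it was 3.27 and 4.21. All 8 were higher at day 14 than in untreated tumour. Of all genes, 24.3% were called higher and 23.5% lower in that comparison, and 20.3% lower in untreated tumour than in parotid. Between the normal glands, 4 of the 8 duct markers were higher in submandibular gland than in parotid and 0 lower, while 7 of the 9 genes were lower. Of all genes, 1.36% were called higher and 0.984% lower there. The 6 B and plasma cell markers tested were also all higher at day 14, and the 8 proliferation markers were all lower. The 5 fat cell markers tested were all higher at day 14 too, with 4 lower in untreated tumour than in parotid, and averaged −1.93 and −5.21 in untreated tumour, 3.08 after 3 days, 4.60 on both arrays after 14 days, 1.27 in the submandibular gland, and 2.25 and 4.41 in the parotid glands. On untreated tumour replicate 1, 6 of the 8 duct markers were not well above background.

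**Figure D4:**
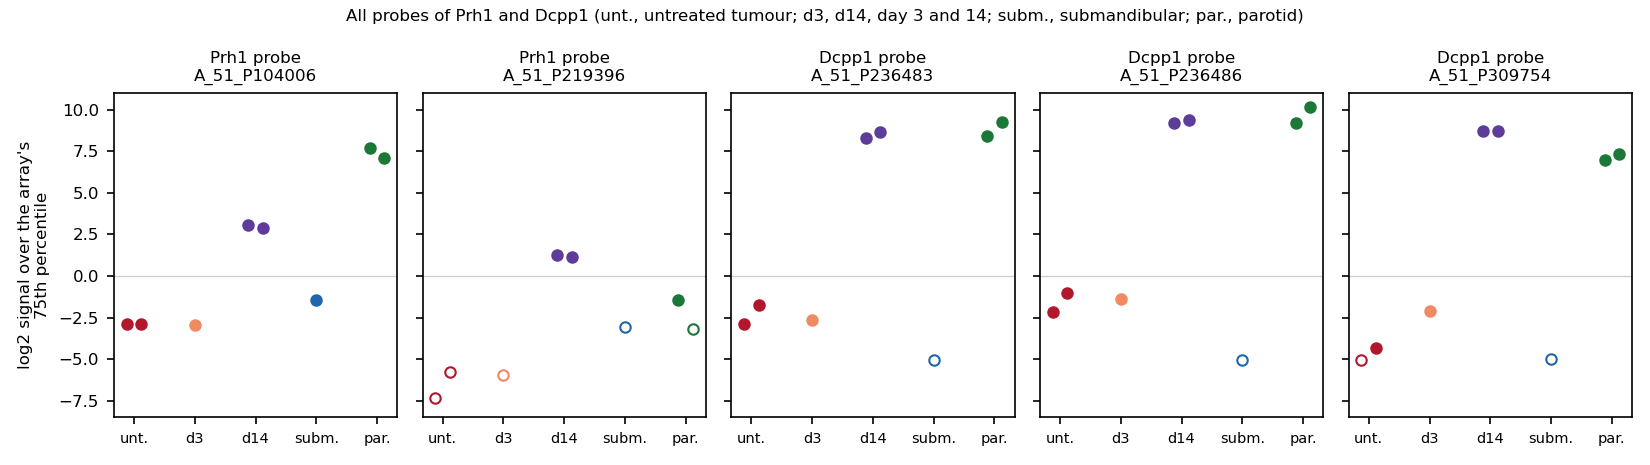
Log2 signal over the array's 75th percentile for the 2 probes of Prh1 and the 3 of Dcpp1 (1 panel each), 1 point per array, by group. Open points were not well above background. The second Prh1 probe is higher at day 14 than in parotid, while the first is lower.

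Different probes of a gene disagreed in places. The second Prh1 probe lies beside the Prp2 probe (chr6:132566401-132566904, mm8) and was at −7.33 and −5.77 in untreated tumour, −5.95 after 3 days, 1.27 and 1.13 after 14 days, −3.05 in the submandibular gland, and −1.43 and −3.19 in the parotid glands. It was higher at day 14 than in parotid (3.51 ± 0.74, limma adjusted p over probes = 0.0323), opposite to the first probe. The mean of both probes did not pass (−0.45). The third Dcpp1 probe was also higher at day 14 than in parotid (1.56 ± 0.30, limma adjusted p over probes = 0.0266), where the other Dcpp1 probes differed by −0.37 and −0.36. In untreated tumour against submandibular gland it differed by 0.30 ± 0.37 (limma adjusted p over probes = 0.583), while the brightest Dcpp1 probe was called higher. On the day 3 array it was at −2.08, against −5.06 (not well above background) and −4.30 in untreated tumour. That difference of 2.60 ± 0.37 did not pass over probes, and the brightest Dcpp1 probe differed by 0.19. Of the 3 Dcpp1 probes, 2 list the Dcpp2 transcript too, so signal of Dcpp1 and Dcpp2 cannot be told apart on them.

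Some genes near the clusters, within 200 kb by mm8 probe position, were tested. Of all genes, 20.3% were called lower and 18.7% higher in untreated tumour than in parotid. At day 14 against untreated tumour, 24.3% were called higher and 23.5% lower. On chromosome 6, all 3 of the tested neighbours (of 7) were lower in untreated tumour than in parotid and higher at day 14 than in untreated tumour. They were Gm4736, MGC78233 and a transcript with no symbol, and the Gm4736 probe's position overlaps that of the Prpmp5 probe. On chromosome 5 the same calls were made for all 4 tested neighbours of 13, Odam, Csn3, Cabs1 and Jchain. Cabs1 was well above background in parotid only, so its rise at day 14 was not measured. MGC78233 and Odam were well above background at day 14 and in parotid only. Cabs1, MGC78233 and Odam were tested only because they were bright there, so their lower signal in untreated tumour was largely set by the filter. On chromosome 17, of 14 tested neighbours of 21, 3 were higher and 0 lower in untreated tumour than in parotid, and 1 was higher and 3 were lower at day 14 than in untreated tumour.

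The genes most like each group over the 8 arrays were named by Pearson's r with the group's mean, a description over arrays that share group and slide. For the proline-rich proteins they were Cldn22 (a claudin, r = 0.999), Amy2a5 (an amylase, 0.982), Crisp1 (a cysteine-rich secretory protein, 0.981) and Dusp26 (a phosphatase, 0.981). Cldn22 was well above background at day 14 and in parotid only, so its r includes dim signals. Like the proline-rich proteins it was lower at day 14 than in parotid (−4.41 ± 0.59). It was picked for that likeness over the same arrays, so this is not a separate result. For the Dcpp genes they were Tmem191c (0.986), Odam (0.984), Adam33 (0.984) and Ccdc69 (0.973). Odam, an enamel-organ protein, was at −7.22 and −5.49 in untreated tumour, −5.06 after 3 days, 0.50 and 0.36 after 14 days, −4.97 in the submandibular gland, and 0.51 and 0.73 in the parotid glands. It was well above background at day 14 and in parotid only. For Smr3a and Muc10 they were Bglap (0.979), Bglap3 (0.978), Golgb1 (0.977) and Grb2 (0.977). Smr3a and Muc10 had r = 0.468 with each other, so likeness to their mean is not likeness to either gene. The range over the arrays was small for Golgb1 (1.087 to 2.365) and Grb2 (3.94 to 4.813). Among the 9 genes, r was 0.954 to 0.998 within the proline-rich proteins, and 0.464 to 0.677 between Muc10 and each other gene.

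Other secretory genes showed the same directions in part. Of 16 acinar secretory genes tested, 14 were lower in untreated tumour than in parotid, against 20.3% of all genes. At day 14 against untreated tumour 13 were higher and 1 lower, against 24.3% and 23.5% of all genes. The median differences of the 16 genes were −7.63 and 6.54. Cst10, a cystatin, was at −7.36 and 1.10 in untreated tumour, −1.69 after 3 days, 8.18 and 7.63 after 14 days, −5.20 in the submandibular gland, and 9.31 and 10.61 in the parotid glands. The genes named here were picked for the largest called changes of the list in these comparisons, so their sizes and p-values are selected. Pip, a prolactin-induced secretory protein, differed between day 14 and untreated tumour by 12.84 ± 2.56 and Dnase1 by 11.89 ± 2.48 (limma adjusted p = 0.00865 and 0.0102). Mucl2, a mucin-like protein, differed by 13.84 ± 2.19 (limma adjusted p = 0.00376). Each was well above background on untreated tumour replicate 2 alone of the untreated pair.

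Of 16 regulators of secretory cells tested, 10 were lower in untreated tumour than in parotid, against 20.3% of all genes. At day 14 against untreated tumour 9 were higher, against 24.3% of all genes. None of the 16 was called the other way in either comparison. Bhlha15 and Creb3l1 were picked as being among the largest called changes of the list, so their sizes and p-values are selected. Bhlha15, a transcription factor of acinar secretory cells, differed between untreated tumour and parotid by −2.47 ± 0.44 and between day 14 and untreated tumour by 2.14 ± 0.44 (limma adjusted p = 0.00712 and 0.00973). Creb3l1, a membrane-bound transcription factor, differed by −3.35 ± 0.41 and 2.90 ± 0.41 (limma adjusted p = 0.00188 and 0.00264). Of the 15 genes related to secretory calcium-binding phosphoproteins, 3 were tested. Csn3, a casein, differed by −7.22 ± 0.71 between untreated tumour and parotid, and Spp1, osteopontin, by 4.82 ± 0.33 (limma adjusted p = 0.000839 and 0.000292).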

How the data were processed

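RNA of 8 samples was hybridised to 1-colour Agilent arrays. Per the file headers, the authors read them with Feature Extraction 10.7.3.1, which gave each spot a background-subtracted processed intensity, not scaled between arrays. The log2 table deposited by the authors, with medians of 5.52 to 5.57 and scaling not stated in the sources used here, served as an alternative. Probe positions are on mm8 and promoters on GRCm38. Genes were named by accession or symbol from RefSeq where matched.

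Control spots, non-uniform spots and population outliers were removed. Probes had to be well above background on all arrays of some group (24552 of 41174 probes). The brightest probe stood for a gene. The log2 processed intensity minus the array's 75th percentile entered limma 3.58.1 (R 4.3.3), which estimated group means over all 8 arrays with an intensity trend (3 residual degrees of freedom, prior 3.28). Two-sided p-values were adjusted by Benjamini-Hochberg across 16362 genes, with a threshold of 0.05. Groups of 1 array were assumed to vary like the others. The fit was tested on simulated data. Promoters were aligned with Biopython 1.88.

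The members and lists were chosen with earlier results of these data known. Named genes are all members, the 4 non-member genes most correlated with each of 3 subfamilies, the largest changes in 3 secretory lists, and neighbours within 200 kb. A gene that this rule names is not reported here. The alternatives were quantile normalization, normexp correction of the background (offset 50), the deposited log2 table, other probe filters, the mean of probes, no trend, slide as a block or slide 1 alone, only the arrays compared, at least 2-fold, and leaving out each replicate.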

Additional observations from a re-analysis of the deposited data

Results flagged for a closer look

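The difference from untreated tumour was larger at 14 days than at 3 days in 8 of the 9 genes, by the limma test of day 14 against day 3. Of all genes, 10.9% were called higher at day 14 and 22.8% in either direction. This test is the difference between the 2 treated groups' changes, since both share the untreated tumours. The difference on the log2 scale was 12.95 for Dcpp2, 12.07 for Muc10, 10.71 for Dcpp1, 10.23 for Dcpp3, 9.66 for Prb1, 7.58 for Prpmp5, 6.57 for Prp2 and 5.95 for Prh1, all higher at day 14. Adjusted p-values from limma ran from 0.000358 for Dcpp2 to 0.0133 for Prb1. For Prb1, Prpmp5, Dcpp2 and Dcpp3 the day 3 array was not well above background, so those sizes are not measured values. Day 3 had 1 array. It held Xist without the Y-linked transcripts, while both day 14 arrays held Xist and the Y-linked transcripts. The muscle markers averaged −4.39 at day 3 and 5.35 and 5.49 at day 14. The part of these differences was not tested.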

How the results depend on the processing

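No paired analysis was possible because the labels number only some arrays and the groups share fewer than 2 label numbers. Over 889 values of the 9 genes under other settings, 792 kept their direction and side of the threshold, 42 lost the call, 23 gained it and 32 changed sign. Where the only probes kept were bright on all 8 arrays, Prh1 and Prp2 were left and 2 genes were called in all comparisons but day 3 against untreated tumour. Normexp left 1 call in untreated tumour against submandibular gland. Leaving out a replicate gave 0 to 5 calls for day 14 against parotid and 0 to 2 for day 14 against submandibular gland, where the single day 14 array left also made calls over all genes rare.

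Day 3 minus untreated tumour, never called, changed sign under normexp for Prb1 (−0.18), Prp2 (−0.10), Prpmp5 (−0.78), Dcpp1 (−0.020), Dcpp2 (−0.39) and Dcpp3 (−0.97). It did so under quantile normalization for Prb1 (−0.21), Prpmp5 (−0.59) and Dcpp3 (−0.16), and with the deposited values for Prh1 (0.017), Prpmp5 (−0.72) and Dcpp3 (−0.96). With slide as a fixed block it did for Prh1 (0.32), Muc10 (−0.33) and Dcpp1 (−0.37), and with the mean of probes for Prh1 (0.26). Leaving out an untreated tumour gave −1.96 to 3.02 for Prb1, −0.52 to 1.28 for Prpmp5, −1.99 to 6.07 for Smr3a and −0.37 to 0.74 for Dcpp1.

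Untreated tumour minus submandibular gland changed sign under quantile normalization for Prpmp5 (0.51) and Dcpp3 (0.10), and with the deposited values for Prpmp5 (0.34), Dcpp2 (3.53) and Dcpp3 (0.93), genes dim on all of these arrays. For Dcpp2 the deposited values gave a call as higher (adjusted p = 0.00324), while no filter on dim probes (−1.63, adjusted p = 0.0184) and leaving out untreated tumour replicate 2 (−2.24, adjusted p = 0.0168) gave calls as lower, so its direction is not settled here. Leaving out an untreated tumour gave −3.26 to 1.72 for Prb1 and −2.19 to 5.87 for Smr3a. Day 14 minus parotid, uncalled, changed sign for Dcpp1 with the mean of probes (0.28) and in slide 1 alone (0.0033). Leaving out a replicate gave −0.84 to 0.094 for Dcpp1 and −2.00 to 0.38 for Dcpp3. The cause was not tested.

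Using only the arrays compared left 1 residual degree of freedom and an infinite prior for day 14 against day 3 and against submandibular gland, so every gene took the variance of the trend there. That called 8709 genes against 3724 and 6561 against 1461, and the Smr3a call it gave for day 14 against day 3 is not used. Over all settings the number of genes called ran from 3736 to 16629 for day 14 against untreated tumour (7809 in the reported fit), 3034 to 15343 for untreated tumour against parotid (6389), 2266 to 13385 for untreated tumour against submandibular gland (4817), 0 to 29 for day 3 against untreated tumour (1), 769 to 8709 for day 14 against day 3 (3724), 0 to 5891 for day 14 against parotid (1852), 0 to 6561 for day 14 against submandibular gland (1461) and 81 to 3385 for submandibular gland against parotid (384). Signal over background limits the sizes for Prb1, Prpmp5, Smr3a, Muc10, Dcpp2 and Dcpp3 in tumours, and for Prb1, Prpmp5, Smr3a and all 3 Dcpp genes in the submandibular gland.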
